A study of Homo sapiens with 4 samples.

Results

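Genes that mark the primitive streak and the mesoderm that first leaves it were followed through every cell of a human blastoid experiment. They were TBXT, MIXL1, MESP1, MSGN1, TBX6, SP5 and APLNR, 7 of the 23364 genes listed in at least 1 of the 4 tables. They were chosen by name, not by a measured value, though with earlier results of these data known, and all 7 were found. Single-cell RNA was counted in 2 samples of KhES1, an established human embryonic stem cell (hESC) line kept on Matrigel in mTeSR-1 medium, and in 2 samples of blastoids made from the same line. Blastoids are stem cell aggregates grown under conditions meant to give a structure like the blastocyst. Here dissociated KhES1 cells were aggregated in microwells with Y27632, moved into a PNIPAAm-PEG hydrogel under DMEM with serum, and then fed daily with iBlastoid medium. All samples thus came from 1 line, without any genetic change named in the labels, and neither the number of pooled blastoids nor separate cultures were named. The titles give the blastoid samples the same day as the stem cells while their tables carry a later day, so the description of each sample set its group. The samples are called hESC 1, hESC 2, blastoid 3 and blastoid 4.

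The primitive streak is the place where epiblast cells of the embryo stop being epithelial and move inward to become mesoderm and endoderm. WNT and NODAL signals start it, and TBXT (brachyury, a T-box factor) and MIXL1 (a homeobox factor) are among the first genes switched on. SP5, a zinc finger factor, is a direct target of WNT signalling. MESP1, a bHLH factor, marks mesoderm that is leaving the streak, including the source of the heart. MSGN1, also a bHLH factor, and TBX6, a T-box factor, mark presomitic mesoderm, from which the somites form. APLNR is the receptor for the peptides encoded by APLN and APELA, and it is found on migrating mesoderm and on endothelial cells.

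The promoters of SP5, TBXT, MIXL1 and MSGN1 are shown. Each of these genes rose in blastoids as a whole, though not always in the same cells. Each promoter holds the core of the site bound by TCF and LEF factors, the DNA-binding partners of the WNT pathway. They were picked for that match, and whether it has a part in the rise was not tested. The sequences are from RefSeq on GRCh38.p14, 200 bases up to the transcription start site, read 5′ to 3′ on the strand of the gene, with matches to CTTTGA or to its reverse complement TCAAAG in capitals.

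SP5, chr2:170715137-170715336, plus strand: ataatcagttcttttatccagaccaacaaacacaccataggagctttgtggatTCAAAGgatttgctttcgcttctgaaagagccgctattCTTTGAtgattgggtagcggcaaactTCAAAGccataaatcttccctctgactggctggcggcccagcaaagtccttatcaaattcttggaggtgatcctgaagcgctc

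TBXT, chr6:166167852-166168051, minus strand: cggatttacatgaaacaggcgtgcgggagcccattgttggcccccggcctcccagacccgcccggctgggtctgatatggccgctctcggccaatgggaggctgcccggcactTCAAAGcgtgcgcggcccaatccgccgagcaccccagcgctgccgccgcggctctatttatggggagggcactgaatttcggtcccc

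MIXL1, chr1:226223464-226223663, plus strand: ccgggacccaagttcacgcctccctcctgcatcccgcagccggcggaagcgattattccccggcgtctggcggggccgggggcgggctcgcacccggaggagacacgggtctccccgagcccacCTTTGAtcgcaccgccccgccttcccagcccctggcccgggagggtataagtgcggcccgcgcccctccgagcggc

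MSGN1, chr2:17816260-17816459, plus strand: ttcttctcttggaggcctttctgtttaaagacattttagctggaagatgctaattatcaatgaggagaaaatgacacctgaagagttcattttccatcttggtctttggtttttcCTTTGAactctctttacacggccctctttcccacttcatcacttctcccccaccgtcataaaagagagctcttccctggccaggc

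SP5 held 3 matches, which began 147, 109 and 83 bases before the start site, and TBXT, MIXL1 and MSGN1 held 1 match each, beginning 87, 76 and 85 bases before it. Windows from 250 bases before to 50 bases after a start site were available for 5 of the 7 genes, with 2 windows for TBXT. At least 1 match was found for 4 of these 5 genes, and none in the second TBXT window or in the window of TBX6. Of all 35116 RefSeq windows of that length, 12.9% held at least 1 match and 0.0997% held 3 or more. A match is a run of letters and not a measured binding site.

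Cells needed 500 or more genes and no more than 20% of mitochondrial UMIs, and called doublets were removed. UMIs are tags put on single RNA molecules before amplification, so that copies are not counted again. Of 9680 barcodes within both limits, 73 were called doublets: 27, 0, 11 and 35 in hESC 1, hESC 2, blastoid 3 and blastoid 4. These calls were few against the expected rate of 6% that was set, so doublets may remain. The 9607 kept cells were 2238, 3175, 2278 and 1916 in the same order. Their median depth was 5769, 4996, 6207 and 8798 UMIs per cell, so blastoid 4 was the deepest. The hESC samples shared 1317 cell barcodes and the blastoid samples 1035, against 6 to 14 between groups. Of these, 23 and 0 were kept in both samples, so no barcode was that of a kept cell in both blastoid samples.

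All 7 genes were in the blastoid tables, 4 in the hESC 1 table and 3 in the hESC 2 table. At least 1 of the 7 was detected in 600 of 2278 cells of blastoid 3 (26.3%, exact Clopper-Pearson 95% interval 24.5 to 28.2) and in 437 of 1916 cells of blastoid 4 (22.8%, 20.9 to 24.8). In the hESC samples 54 and 70 cells had a UMI of any of them. TBXT, MSGN1 and APLNR were in neither hESC table. These tables list few genes seen in fewer than 3 barcodes, so a missing gene may still have had UMIs in as many as 2 barcodes of that table.

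TBXT was detected in 57 cells of blastoid 3 (74 UMIs) and 37 cells of blastoid 4 (65 UMIs), or 2.5% and 1.93% of cells. No positive cell held more than 3 UMIs in blastoid 3 or 5 in blastoid 4. MIXL1 had 1 UMI or, in a single cell, 2 UMIs in 28 cells of hESC 1 and 33 of hESC 2 (1.25% and 1.04%). In blastoids it was detected in 90 and 70 cells (3.95% and 3.65%) with 235 and 148 UMIs, and the highest cell held 17 and 22. The blastoid samples therefore lay above the hESC samples in both the share of cells and the count per positive cell.

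SP5 had 2 UMIs in hESC 1 and was missing from the hESC 2 table, against 146 UMIs in 120 cells of blastoid 3 and 198 UMIs in 132 cells of blastoid 4 (5.27% and 6.89%). It was the only one of the 7 with the larger share of cells in blastoid 4. MESP1 was detected in 12 and 17 hESC cells, never with more than 1 UMI, and in 162 and 83 blastoid cells (7.11% and 4.33%) with 425 and 186 UMIs. MSGN1 was detected in 141 and 62 blastoid cells (6.19% and 3.24%) with 293 and 106 UMIs. For MESP1 and MSGN1 the intervals of blastoid 3 and blastoid 4 did not overlap (6.09 to 8.25 against 3.46 to 5.34 and 5.24 to 7.26 against 2.49 to 4.13), so these samples differed by more than counting error.

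TBX6 differed least between the groups. It was detected in 13 and 20 hESC cells (0.581% and 0.63%) and in 40 and 20 blastoid cells (1.76% and 1.04%), and only 4 cells of blastoid 3 held 2 UMIs. APLNR was detected in 315 cells of blastoid 3 (13.8%) and 180 of blastoid 4 (9.39%), with 513 and 286 UMIs, and these intervals did not overlap either (12.4 to 15.3 and 8.13 to 10.8).

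Because a deeper cell shows more genes, 2000 UMIs were also drawn from each cell that had them, which kept 1803, 2202, 2171 and 1874 cells. The share of positive blastoid cells was then 0.807% ± 0.161 (SD, n = 2) for TBXT, 1.38% ± 0.591 for MIXL1, 2.06% ± 0.704 for SP5 and 2.49% ± 1.18 for MESP1. It was 2.07% ± 1.11 for MSGN1, 0.459% ± 0.197 for TBX6 and 4.12% ± 2.12 for APLNR. The thinned share in hESC cells was 0.462% ± 0.182 for MIXL1, 0.325% ± 0.0105 for MESP1 and 0.265% ± 0.139 for TBX6. TBX6 was then at 0.166% and 0.363% in the hESC samples and 0.599% and 0.32% in the blastoid samples, so its groups overlapped. For the other 6 genes both blastoid samples lay above both hESC samples, and each exact two-sided permutation p was 0.33, the smallest that 2 samples against 2 can give.

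**Figure D1:**
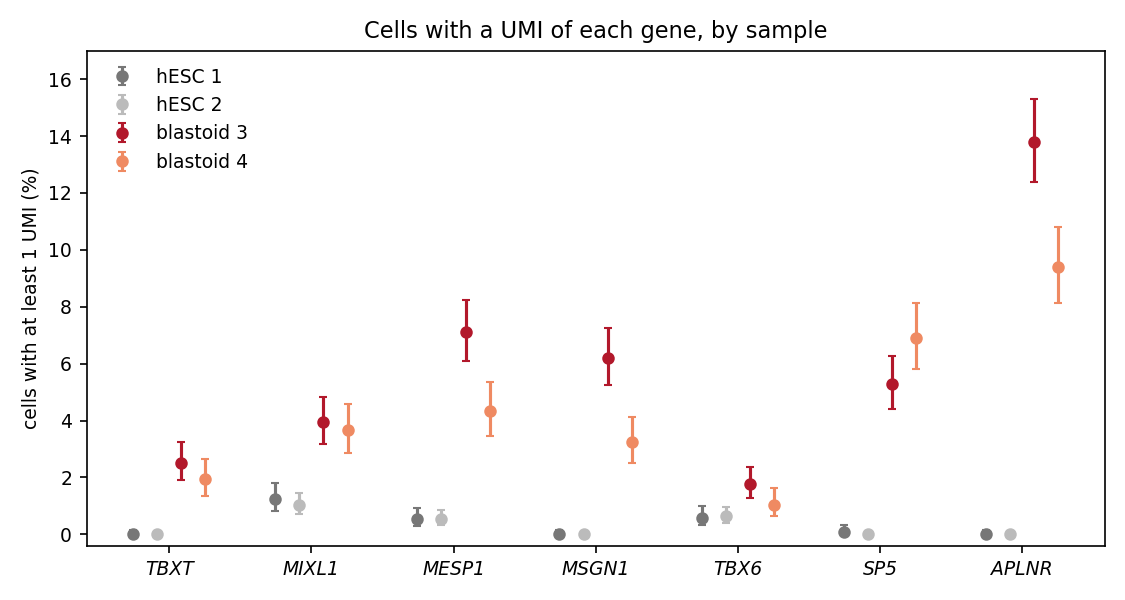
Percent of kept cells with at least 1 UMI of each gene (y axis) for the 7 genes (x axis) in the 4 samples. Points are samples, not thinned, and bars are exact 95% intervals that cover counting error only; the blastoid points lie above the hESC points for all 7 genes, with overlapping intervals for TBX6 between blastoid 4 and both hESC samples.

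Levels were compared between the groups with the edgeR quasi-likelihood test on UMIs summed per sample over all kept cells, with Benjamini-Hochberg adjustment over 16332 genes. A sum over a whole sample does not tell more positive cells from more RNA per cell. Of the 7 genes, 6 rose in blastoids and TBX6 was not called, while 27.1% of all tested genes were called higher and 22.8% lower. With 49.9% of all genes called in either direction, the count of 6 says little by itself and the sizes say more. TBXT, MSGN1, APLNR and SP5, at or near 0 in both hESC samples, passed the filter on low counts only through the blastoid samples. For them a call of higher was nearly the only one open, as for genes of the lists below at 0 in hESC. Without hESC 1 or hESC 2 the count of called genes went from 8157 to 4896 or 5114. The median log2 fold change was 6.97 over the 7 genes, or 4.12 with genes at 0 set to the bounds given next, and 0.05 over all tested genes.

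In CPM (UMIs per 1000000, scaled by TMM) TBXT was at 0 and 0 in the hESC samples and at 4.52 and 3.65 in the blastoid samples. This is at least 12.4-fold higher, measured against 9.15 UMIs over both hESC samples, the upper 95% limit of 2 counts missed in each table. On the same terms MSGN1 (17.9 and 5.96 CPM in blastoids) was at least 35.6-fold and APLNR (31.3 and 16.1 CPM) at least 71.2-fold higher. Both bounds were larger in blastoid 3 alone (54.5 and 95.4) than in blastoid 4 alone (18.2 and 49). The edgeR adjusted p was 0.000269 for TBXT, 0.00121 for MSGN1 and 0.000182 for APLNR.

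MIXL1 rose from 2.24 and 2.21 CPM to 14.3 and 8.32 CPM, a log2 fold change of 2.34 ± 0.32 (SE, edgeR adjusted p = 0.000979). MESP1 rose from 0.962 and 1.1 CPM to 25.9 and 10.5 CPM, by 4.12 ± 0.51 on the log2 scale (edgeR adjusted p = 0.000649). SP5, at 0.16 and 0 CPM, rose to 8.91 and 11.1 CPM (edgeR adjusted p = 8.51e-05). The ratio was 140.4 with a counting interval of 38.6 to 1164, since only 2 hESC UMIs stand behind it. SP5 was missing from the hESC 2 table, which is taken here as 0. Without the allowance of 2 counts used above, the ratio and its limits may be too high. TBX6 was at 1.04 and 1.3 CPM in the hESC samples and 2.69 and 1.12 CPM in the blastoid samples, with a log2 fold change of 0.68 ± 0.48 (edgeR adjusted p = 0.275). That value rested on blastoid 3: it was -0.06 without it (edgeR adjusted p = 0.921) and 1.15 without blastoid 4 (edgeR adjusted p = 0.01).

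Genes that act around the streak were read from the same test, by list. Of 10 WNT target and feedback genes all were tested and 9 rose, with a median log2 fold change of 3.37, or 3.25 with genes at 0 set to their bounds. LEF1 rose from 1.12 and 0.649 to 134 and 97.4 CPM, NKD1 from 2.4 and 2.4 to 28.4 and 20.7 CPM, and AXIN2 by 0.91 ± 0.17 on the log2 scale, while ZNRF3 was not called (0.21 ± 0.16, edgeR adjusted p = 0.314). Of 12 streak signals 9 were tested, of which 7 rose and 2 fell (median 2.55, also with bounds). NODAL rose from 2.72 and 2.4 to 7.14 and 13.4 CPM and WNT3 from 1.36 and 2.14 to 8.06 and 8.21 CPM, whereas the NODAL co-receptor TDGF1 fell from 331 and 343 to 19.9 and 28 CPM.

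Of 10 streak transcription factors 8 were tested. EOMES, LHX1, EVX1, CDX1 and CDX2 rose, and OTX2, FOXH1 and SP8 fell (median 6.81, or 3.20 with bounds). EOMES, a T-box factor of the early streak, was low in blastoids, at 2.5 and 0.899 CPM. Among the 9 tested presomitic and paraxial genes, HES7, FOXC1 and RSPO3 rose, LFNG and TCF15 fell, and MESP2, DLL1, DLL3 and CYP26A1 were not called (median 0.23). The list of lateral, cardiac and extraembryonic mesoderm had 11 of 12 genes higher (median 9.29, or 5.35 with bounds), with HAND1 at 654 and 806 CPM against 0 and 0. Axial and node genes were 2 of 2 tested higher (CHRD and NOG), each under 5 CPM in every sample. The receptor APLNR rose while its ligand gene APLN fell from 1.2 and 1.3 CPM to 0 and 0 (edgeR adjusted p = 0.00129), and APELA was not called (edgeR adjusted p = 0.0746).

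Which blastoid cells carried the 7 genes was read from clusters built without them, so that the genes did not define the groups in which they were counted. Class names were rebuilt from marker genes and may differ from those of the study. The 7 genes were not spread evenly: 2 clusters held most of TBXT, and a single cluster held most UMIs of MESP1 and MSGN1. That cluster was led by NTS (neurotensin), HOXA-AS3 and PLA2G2A and had 272 cells in blastoid 3 and 63 in blastoid 4. It was left unnamed because no class led clearly. Markers were counted 1 by 1, each when detected in at least 10% of the cells. This gave 8 of 10 pluripotent markers, 9 of 13 mesenchyme markers, 5 of 14 nascent mesoderm markers and 5 of 12 trophectoderm/amnion markers. Whether single cells carried these markers together was not counted. The other was a pluripotent-like cluster led by C9orf135, TMPRSS11E and NODAL, with 53 and 87 cells and 10 of 10 pluripotent markers. Neither cluster held an hESC cell.

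TBXT was detected in 12.5% and 14.3% of the NTS-led cells of blastoid 3 and blastoid 4 and in 18.9% and 24.1% of the C9orf135-led cells. The exact intervals of the clusters overlapped within each sample. Elsewhere it was at or below 1.6% in every cluster but the shallow pluripotent-like cluster led by LRRC75A, where 3 of 22 cells of blastoid 3 and 0 of 7 of blastoid 4 were positive. MIXL1 had a like distribution, with 15.1% and 15.9% of NTS-led cells and 20.8% and 24.1% of C9orf135-led cells. It was at 0.973% and 3.01% in the trophectoderm/amnion-like cells (median 7908 UMIs per cell, against 7986 in NTS-led and 11776 in C9orf135-led cells). Without thinning, the hESC shares of 1.25% and 1.04% lay below that of these cells in blastoid 4. Its interval of 1.82 to 4.66 did not overlap theirs (0.833 to 1.8 and 0.717 to 1.46). This was not seen when cells were thinned to equal depth. The trophectoderm/amnion-like share was then 0.276% in blastoid 3 and 0.488% in blastoid 4, against 0.333% in hESC 1 and 0.59% in hESC 2.

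MESP1 and MSGN1 separated the clusters. MESP1 was in 39.3% and 41.3% of the NTS-led cells and in 1 of 53 and 1 of 87 of the C9orf135-led cells. MSGN1 was in 36.4% and 36.5% of the NTS-led cells and in 0 of 53 and 0 of 87 of the C9orf135-led cells, where the exact upper limit was 6.72% and 4.15%. After thinning to 2000 UMIs the order held, with MESP1 in 20.8% and 17.5% against 1.92% and 0% and MSGN1 in 18.2% and 15.9% against 0% and 0%. TBX6 was also highest in the NTS-led cells, at 7.72% and 9.52%, and at most 1.89% in any other cluster.

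SP5 ran the other way, with 30.2% and 58.6% of C9orf135-led cells against 15.8% and 27% of NTS-led cells. In blastoid 4 these intervals did not overlap (47.6 to 69.1 against 16.6 to 39.7), and in blastoid 3 they did. At 2000 UMIs per cell the shares were 13.5% and 17.2% against 3.35% and 12.7%. SP5 was also in 4.27% to 5.95% of the mesenchyme-like cells led by TECRL and by PITX1, above the 0.73% and 0.792% of trophectoderm/amnion-like cells. APLNR was the most widespread: it was in 37.5% and 31.7% of NTS-led cells, 16.5% and 14.1% of TECRL-led and 14.6% and 14% of PITX1-led mesenchyme-like cells. It was in 3 of 5 and 9 of 12 endothelial-like cells, but in 2 of 411 and 1 of 631 trophectoderm/amnion-like cells and in 4 of 53 and 0 of 87 C9orf135-led cells.

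**Figure D2:**
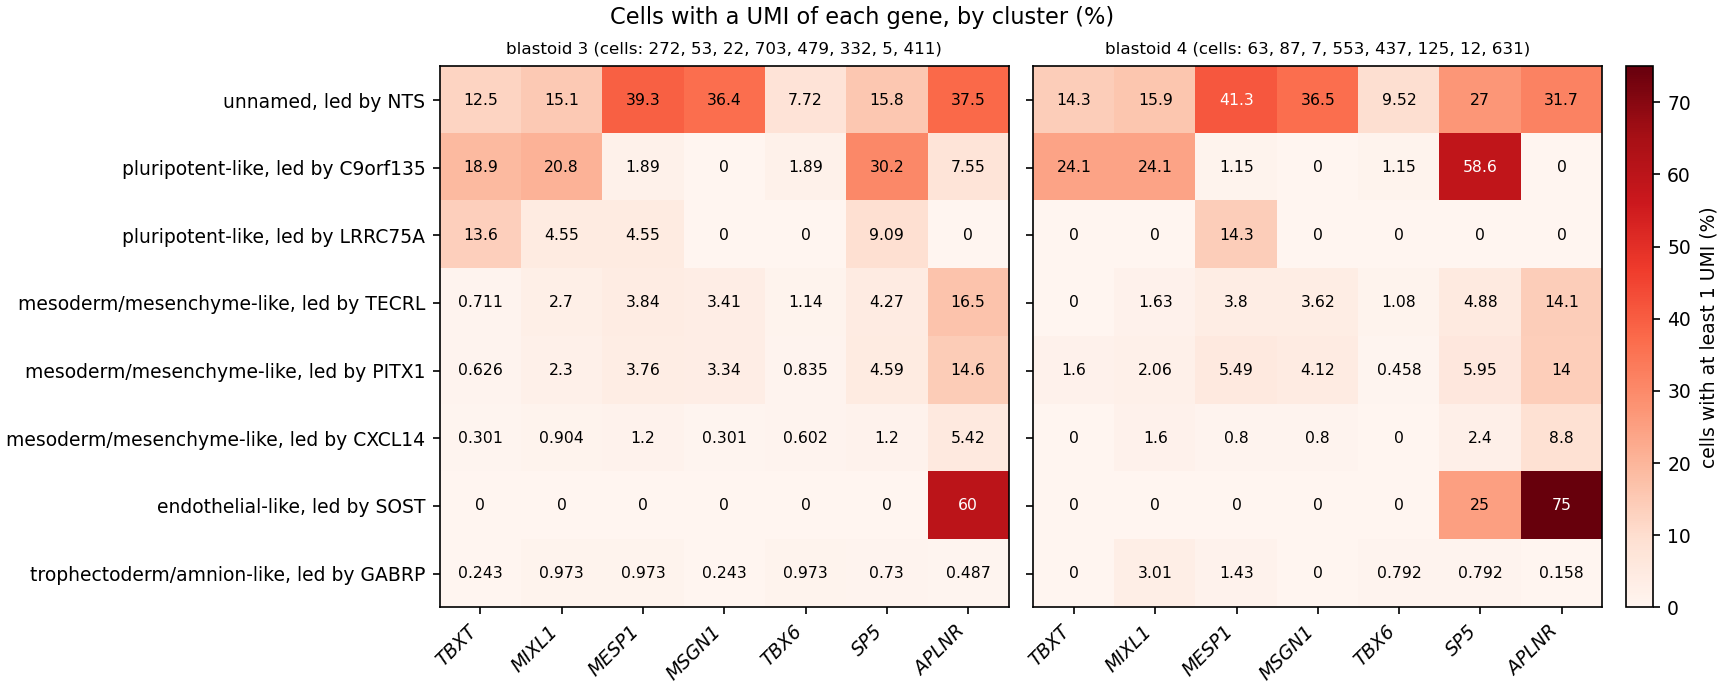
Percent of cells with at least 1 UMI, not thinned, for the 7 genes (columns) in 8 clusters (rows) of blastoid 3 and blastoid 4; the number of cells per row is in each panel's title, and a cluster with 1 cell in each sample is left out. TBXT, MIXL1 and SP5 are high in the first 2 rows, MESP1, MSGN1 and TBX6 are highest in the first row, and APLNR extends into the mesenchyme-like and endothelial-like rows.

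A finer clustering (Leiden resolution 1.0 in place of 0.5) split the 7 genes further among unnamed cells. It gave 1 group led by NTS and LHX1 (159 and 36 cells) and 1 led by HOXA-AS3 and HOXB-AS3 (190 and 29 cells). MIXL1 was in 27% and 27.8% of the NTS and LHX1 group and in 3.16% and 3.45% of the HOXA-AS3 group. MSGN1 showed the reverse, with 10.7% and 30.6% against 46.3% and 51.7%. TBX6 was not alike in the samples, with 3.77% against 8.95% in blastoid 3 and 8.33% against 6.9% in blastoid 4. TBXT (17% and 16.7% against 5.26% and 10.3%) and SP5 (25.8% and 38.9% against 6.84% and 13.8%) went with MIXL1, and MESP1 was in 30.2% to 44.4% of both groups. The groups were made from other genes of the same cells, so this is a description and no test was made.

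Co-detection was counted in single cells. In blastoid 3 at least 2 of the 7 genes were seen in 191 cells (8.38%, exact interval 7.28 to 9.6) and in blastoid 4 in 94 cells (4.91%, 3.98 to 5.97). At 2000 UMIs per cell the shares were 3.36% and 1.28%. The NTS-led cluster held 129 of the 191 cells and 29 of the 94, and the C9orf135-led cluster held 14 and 27. Of the 53 cells with 4 or more of the genes, 49 were NTS-led cells, and no cell had all 7.

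For each pair the number of cells with both genes was set beside the product of their shares times the cells of the sample. All 21 pairs lay above that product in both samples. TBXT and MIXL1 were together in 22 cells of blastoid 3 against a product of 2.25, and in 13 of blastoid 4 against 1.35. MESP1 and MSGN1 were together in 56 cells against 10 and in 21 against 2.69. SP5 and APLNR came closest to the product in blastoid 3, with 32 cells against 16.6. At 2000 UMIs 15 of the 21 pairs were above it in both samples. A product over a whole sample assumes that all cells are alike, and within the NTS-led cells of blastoid 3 the counts lay closer to it. There TBXT and MIXL1 were together in 17 cells against 5.12 and MIXL1 and MESP1 in 32 against 16.1, but MIXL1 and MSGN1 in 14 against 14.9 and TBXT and MSGN1 in 10 against 12.4. In blastoid 4, with 63 such cells, TBXT and MSGN1 were together in 6 against 3.29, so this pair was not alike in the samples. Cells with at least 2 of the genes were deeper than the others, with a median of 7923 against 6097 UMIs in blastoid 3 and 11859 against 8688 in blastoid 4. The part of depth in the co-detection was not tested.

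**Figure D3:**
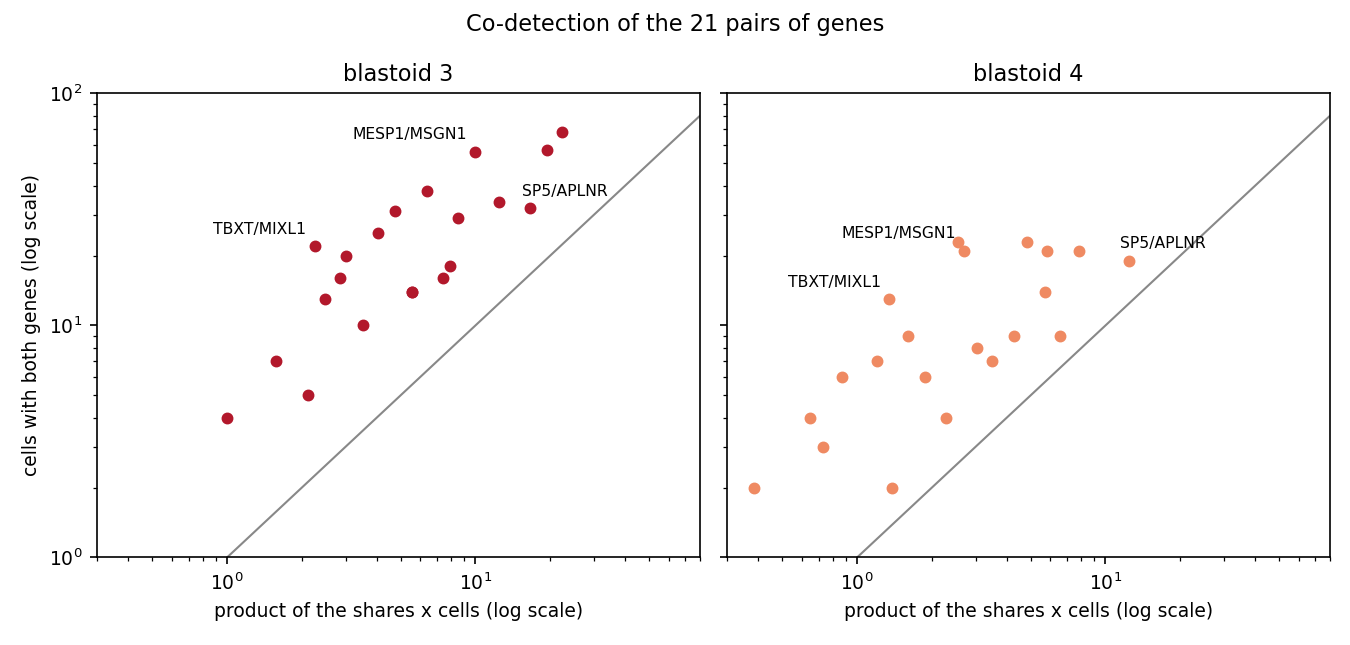
Cells in which both genes of a pair were detected (y axis, log scale) against the product of the 2 shares times the number of cells (x axis, log scale), for the 21 pairs in blastoid 3 and blastoid 4, not thinned. Each point is a pair, the line marks equality, and all 21 points lie above it in both samples, TBXT with MIXL1 the farthest and SP5 with APLNR among the nearest.

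Most of the 94 TBXT-positive blastoid cells lay in these 2 clusters, and they differed in what else they carried. In the NTS-led cluster there were 43, of which 34 also had MESP1 or MSGN1, 30 had POU5F1 and 2 had SOX2. In the C9orf135-led cluster there were 31, of which 1 had MESP1 or MSGN1, all 31 had POU5F1, 22 had SOX2 and 23 had SP5. POU5F1 and SOX2 were among the markers that named the clusters, while MESP1, MSGN1 and SP5 were used neither for clustering nor for naming. The share of TBXT-positive cells in the pluripotent-like class was 22.8% in blastoid 3 (13 of 57, exact interval 12.7 to 35.8) and 56.8% in blastoid 4 (21 of 37, 39.5 to 72.9). These intervals did not overlap. Neither did those at resolution 1.0, with the same shares, or for cells with at least 2 UMIs of TBXT (7.14% and 70.6%, of 14 and 17 cells). Under other settings the intervals overlapped. The shares were 29.8% and 56.8% with the 7 genes kept among the variable genes, and 50.9% and 62.2% with 15 principal components. With called doublets kept they were 64.9% and 72.5%, and without the naming margin 82.5% and 81.1%. That share depends on where the NTS-led cells are put: with cells called doublets kept, NTS-led cells joined a pluripotent-like cluster and the mean share over both samples went from 39.8% to 68.7%. It was 81.8% when a cluster took the best-matching name without a margin.

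The levels of other genes in these TBXT-positive cells come from 34 and 9 NTS-led cells and from 10 and 21 C9orf135-led cells of blastoid 3 and blastoid 4. The clusters were built on these other genes and named by pluripotency markers, so differences in such genes are set in part by the grouping and are given as a description. POU5F1, the central pluripotency factor, was at 304 and 198 CPM in the NTS-led and 1026 and 944 CPM in the C9orf135-led positive cells, and SOX2 at 5.84 and 0 against 364 and 89.3 CPM. NODAL was at 20.4 and 32.9 against 276 and 255 CPM, and GDF3, another ligand of that pathway, at 11.7 and 0 against 99.3 and 54.2 CPM. Of 12 streak signals these and TDGF1 were higher in the C9orf135-led cells of both samples by a log2 ratio of at least 1. By that limit 5 were higher in the NTS-led cells: WNT8A, WNT5A, WNT5B, BMP4 and FGF4. So were 4 of 9 streak transcription factors and 3 of 10 WNT targets, with 0 of either list the other way.

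Of 12 lateral, cardiac and extraembryonic mesoderm genes 7 were higher in the NTS-led positive cells of both samples by a log2 ratio of at least 1, as were 3 of 12 presomitic and paraxial genes, and none was lower by that much in both. With so few cells a gene can pass this limit on 1 UMI. MESP1, which the clustering did not use, was at 315 and 584 CPM in NTS-led and 22.1 and 0 CPM in C9orf135-led positive cells. TBX6, also not used, was at 5.84 and 0 against 11 and 3.19 CPM. HAND1 was at 394 and 864 against 11 and 16 CPM, and the NODAL target CER1 at 52.6 and 115 against 0 and 0 CPM. LHX1, a homeobox factor of early mesoderm, was at 64.3 and 198 against 0 and 0 CPM. Of 11 genes of the epithelial to mesenchymal change 6 were higher in both samples by the same limit, with SNAI1 at 43.8 and 90.5 against 0 and 3.19 CPM and VIM at 187 and 601 against 0 and 19.1 CPM, while FN1 was at 202 and 469 against 209.5 and 35.1 CPM and CDH1 at 178 and 115 against 165 and 207 CPM. The APLNR ligand gene APELA was at 2.92 and 8.23 CPM in the NTS-led cells, which carried the receptor at 149 and 139.9 CPM. In the C9orf135-led cells APELA was at 55.1 and 47.9 CPM and APLNR at 11 and 0 CPM.

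**Figure D4:**
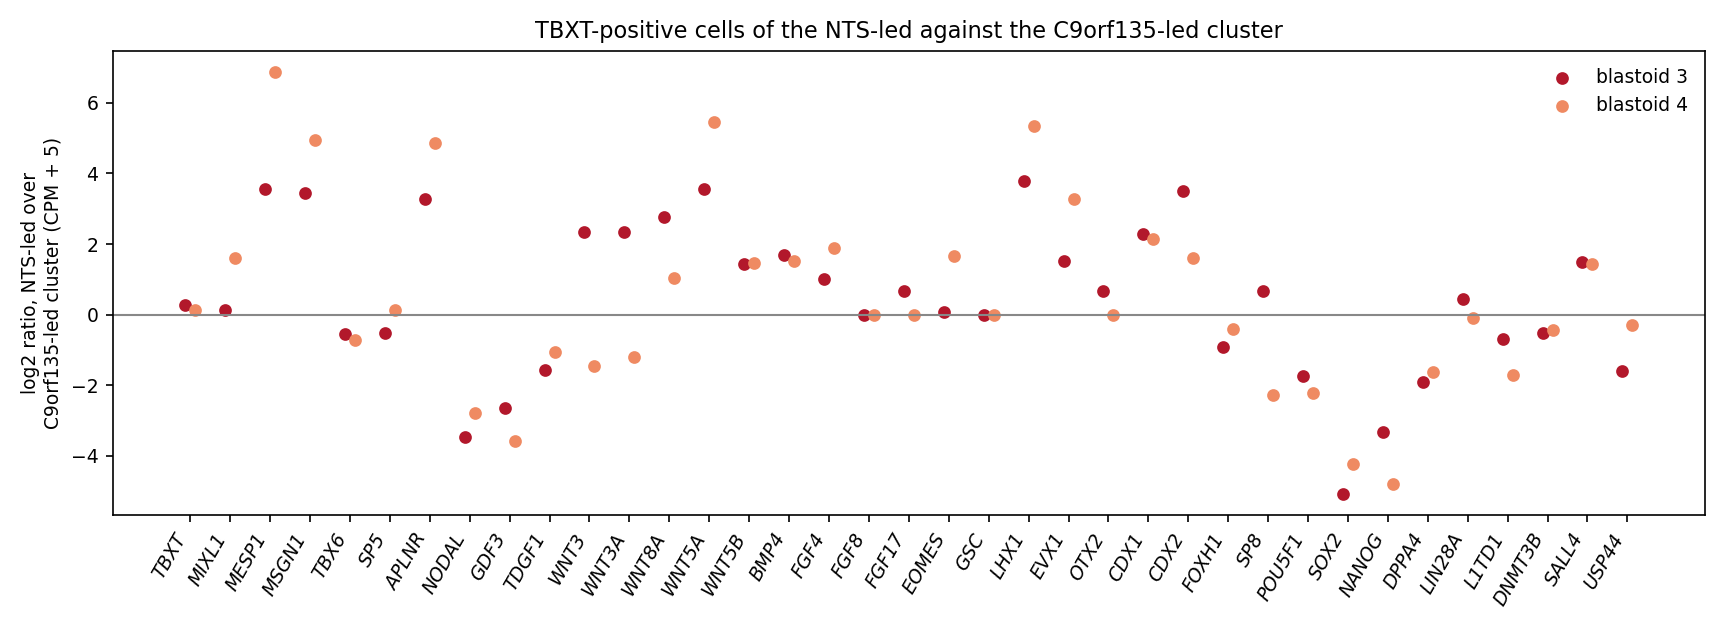
Log2 ratio of CPM + 5 in TBXT-positive cells of the NTS-led over the C9orf135-led cluster (y axis) for the 7 genes and the listed streak signals, streak transcription factors and pluripotency genes (x axis), 1 point per blastoid sample. MESP1, MSGN1, APLNR, WNT5A and LHX1 are above 3 in both samples, and NODAL, SOX2 and NANOG are below -2; a gene with few UMIs in 9 to 34 cells can lie far from 0 on 1 UMI.

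Pluripotent-like cells were the only named class in both groups, so the 7 genes were also compared there. The class held 2080 and 2915 hESC cells, mostly of a cluster led by ZIC2 (1795 and 2184) and otherwise of the LRRC75A-led cluster, and 75 and 94 blastoid cells, of the C9orf135-led (53 and 87) and LRRC75A-led clusters. TBXT rose from 0 and 0 CPM to 23.9 and 35 CPM, at least 94.8-fold (edgeR adjusted p = 6.97e-12). MIXL1 rose from 2.26 and 2.21 to 58 and 32.4 CPM, by 4.22 ± 0.32 on the log2 scale (edgeR adjusted p = 2e-10). SP5 rose from 0.161 and 0 to 40.9 and 81.4 CPM (edgeR adjusted p = 5.54e-14). MESP1 was at 0.967 and 1.04 CPM in the hESC cells and 6.82 and 1.75 CPM in the blastoid cells, from 6 blastoid UMIs, and was not called (1.78 ± 0.78, edgeR adjusted p = 0.105).

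MSGN1, TBX6 and APLNR were too low in this class to be tested, with 0, 2 and 4 UMIs in its blastoid cells. So 3 of the 4 tested genes rose, where 11.4% of all 14017 tested genes were called higher, 10.2% lower and 21.6% in either direction. TBXT and SP5, at or near 0 in the hESC cells, passed the filter on low counts only through the blastoid cells. For both genes a call of higher was nearly the only one open, so the count of 3 says little by itself. MESP1 was called here, at 6.70 on the log2 scale, with cells called doublets kept, and at 6.55 without the naming margin, settings under which NTS-led cells enter the class. The clustering on other genes of the same cells is not accounted for in these p-values, and the count of 3028 called genes was 1077 without hESC 1, 1387 without hESC 2 and 1798 without blastoid 4.

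Signals of the streak rose with these 3 genes in the pluripotent-like cells: of 9 tested streak signals 7 rose and none fell, with a median log2 fold change of 3.81 against -0.02 over all tested genes. NODAL went from 2.66 and 2.4 to 169 and 191 CPM, WNT3 from 1.37 and 2.08 to 27.3 and 47.2 CPM, FGF4 from 0.564 and 0.585 to 18.8 and 19.2 CPM and BMP4 from 4.75 and 5.85 to 76.7 and 74.4 CPM. TDGF1 and WNT3A were not called (edgeR adjusted p = 0.749 and 0.0891). NODAL was among the leading genes of the C9orf135-led cluster, which gave most blastoid cells of the class. Its rise was thus set in part by the grouping. Of 7 tested WNT targets 6 rose, among them TCF7 from 5.96 and 8.45 to 51.1 and 60.4 CPM, and ZNRF3 was not called (median 2.96). Of 6 germ cell genes 3 were tested and all rose in these cells (PRDM1, PRDM14 and TFAP2C, median 2.31). Over all kept cells TFAP2C rose, PRDM14 fell and PRDM1 was not called. Other lists moved less evenly. Of 4 tested streak transcription factors CDX2 rose from 0 and 0 to 17.1 and 13.1 CPM and OTX2 fell from 25.6 and 27 to 0 and 0 CPM (median 0.33). Of 5 tested NODAL targets NODAL itself and SMAD7 rose, and LEFTY1, LEFTY2 and TDGF1 were not called (median -0.02). Of 7 tested lateral, cardiac and extraembryonic mesoderm genes 5 rose (median 2.04), among them HAND1 from 0 and 0 to 40.9 and 17.5 CPM and TBX3 from 0 and 0 to 22.2 and 11.4 CPM. Of 5 tested presomitic and paraxial genes none rose and CYP26A1 fell (median -0.62). Of 8 tested genes of the epithelial to mesenchymal change FN1 and TWIST1 rose and 6 were not called, among them CDH1, EPCAM and SNAI1. POU5F1 (1212 and 1150 against 924 and 1062 CPM) and SOX2 (330.5 and 297 against 281 and 241 CPM) were not called either, and NANOG rose by 0.74 ± 0.15 on the log2 scale (edgeR adjusted p = 0.000784). Of the 10 pluripotency genes NANOG alone rose and 3 fell (median of the list -0.27). The log2 fold changes of those that fell were -1.56 for USP44, -1.09 for DNMT3B and -0.77 for LIN28A. All genes of this list but SALL4 were among the markers that named the class, so their levels were set in part by that choice. APELA rose from 8.95 and 7.02 to 59.7 and 54.2 CPM.

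**Figure D5:**
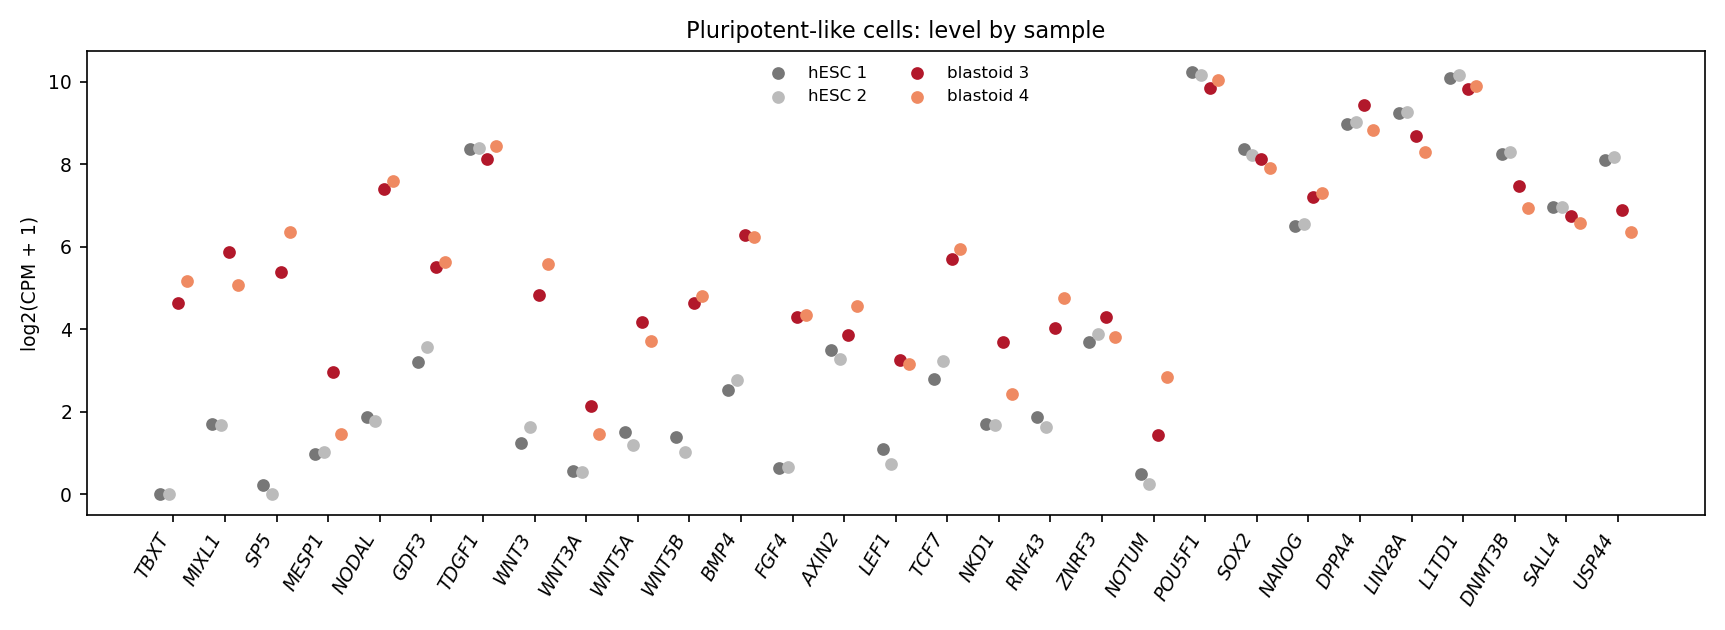
Level in pluripotent-like cells as log2 of CPM + 1 (y axis) in the 4 samples for tested genes among the 7 and among the listed streak signals, WNT targets and pluripotency genes (x axis). TBXT, MIXL1, SP5, NODAL, WNT3 and TCF7 are higher in both blastoid samples, TDGF1 overlaps between the groups, and MESP1 lies far apart in the 2 blastoid samples.

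Other genes were ranked by their level in positive against other cells of the same blastoid sample, with a pseudocount of 5 CPM, and the lower of the 2 samples' log2 ratios set the rank. For TBXT the first was GAL, which encodes galanin, with 4.02 and 3.84, followed by MIXL1 with 3.71 and 3.29, LINC01356, MESP1, DCLK1, POU5F1, NTS and TMPRSS11E. The strongest falls were IGFBP3 with -3.98 and -4.28, KRT7, EPAS1 and IGFBP5. MIXL1 had GAL, NTS, NODAL, MESP1 and TBXT as its first genes, and SP5 had GAL, MIR302CHG, LINC01356 and POU5F1.

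NTS was among the first 8 genes for each of the 7, and MIXL1 for each but itself. The first neighbours of MESP1 and MSGN1 differed only in part from those of TBXT and SP5. For MESP1 they were NTS (3.58 and 3.42), MIXL1, MSGN1, HOXA-AS3 and LHX1, and for MSGN1 they were HOXA-AS3 (2.99 and 3.08), MESP1, NTS, DLL3 and HOXA3. DLL3, a Notch ligand of presomitic mesoderm, was not called in blastoids as a whole and was at 84.1 and 47.7 CPM in MSGN1-positive cells, log2 ratios of 2.44 and 2.11. For APLNR the first genes were MESP1 (2.76 and 2.23), NTS, MSGN1, FGF19 and LHX1, and the strongest falls were in GABRP, which led the trophectoderm/amnion-like cluster, TRIML2, IGFBP7 and CLDN4. TBX6 had MIXL1 (2.48 and 3.59), APLNR and NTS first. Of 56 such genes for the 7, 27 stayed among the first 8 when positive cells were compared with other cells of the same cluster. At 2000 UMIs per cell 4 stayed, from 91 to 689 genes with enough UMIs to be ranked, against 1781 to 8606 without thinning. POU5F1 was 2.94 and 3.01 higher on the log2 scale in TBXT-positive cells and -0.18 and -1.75 in APLNR-positive cells.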

How the data were processed

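Single-cell 3′ libraries (10x Genomics Chromium, v3.1 kit per the labels' protocols) of 2 hESC and 2 blastoid samples were used as deposited. Each table holds raw UMI counts of genes by cell barcodes, as the authors deposited them. Cell Ranger and GRCh38 are named in the submitters' processing notes; versions and filters are not given in the sources used here. Nothing in the labels says that samples of a group came from separate cultures, so p-values measure the spread between these samples, which may be technical.

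Cells were filtered (500 genes, 20% mitochondrial UMIs, Scrublet in scanpy 1.11.5, expected rate 6%) and clustered without the 7 genes on 2000 variable genes (30 principal components, 15 neighbours, leidenalg 0.10.2, resolution 0.5). Class names went by the share of a class's markers detected in at least 10% of a cluster's cells. That share had to lead the next class by 15 percentage points, with at least 3 markers. This margin was chosen after the data had been seen. A cluster far shallower than its samples, with no marker of the class among its leading genes, was also left unnamed. This applied to the HIST1H4H-led cluster (158 and 260 hESC cells, median 1134 UMIs, 10 of 10 pluripotent markers). The LRRC75A-led cluster (median 1025 UMIs) had NANOG and TDGF1 among its leading genes and was named. UMIs summed per sample were tested with edgeR 4.0.16 (quasi-likelihood, TMM, filterByExpr, Benjamini-Hochberg, calls at an adjusted p under 0.05) and with DESeq2 1.42.0 as an alternative, after a check on simulated counts. The SE is the fold change divided by the square root of F. Intervals are exact Clopper-Pearson at 95% and cover counting error only. Genes named are the 7, those of fixed lists, and the 8 highest and 4 lowest companions of each with at least 20 UMIs, for genes with at least 10 positive cells per blastoid sample. The genes and lists were chosen with earlier results of these data known. RefSeq promoter windows (GRCh38.p14) were matched by symbol.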

Additional observations from a re-analysis of the deposited data

Results flagged for a closer look

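Barcodes with fewer than 500 genes were outside the comparisons, 1198 in blastoid 3 and 120 in blastoid 4, against 3676 and 4400 in the hESC samples. In those of blastoid 3 there were 5 UMIs of TBXT, 10 of MESP1, 4 of MSGN1, 3 of SP5 and 8 of APLNR, each more than the same gene had in either hESC sample, where the highest of the 5 was MESP1 with 3 UMIs. The other genes did not follow: MIXL1 had 3 UMIs against 7 in hESC 1 and 1 in hESC 2, and TBX6 had 0 against 1 and 2. Blastoid 4 had 1 UMI each of MIXL1, MESP1 and APLNR in such barcodes. Of the positive barcodes of blastoid 3, 3 of 5 for TBXT, 3 of 3 for MIXL1, 4 of 9 for MESP1, 2 of 4 for MSGN1, 2 of 3 for SP5 and 4 of 8 for APLNR were also the barcode of a kept cell of blastoid 4. None of the positive barcodes of blastoid 4 was that of a kept cell of blastoid 3. The same share over all 1198 barcodes of blastoid 3 was not counted directly. The blastoid samples shared 1035 barcodes, 0 of them kept in both, and 1916 of 2071 barcodes of blastoid 4 were kept cells. Most of the 1198 were therefore also barcodes of a kept cell of blastoid 4, so such overlap was not particular to the positive barcodes.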

How the results depend on the processing

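Over the log2 fold changes of single members, 111 values under other settings kept their direction and their side of the threshold, 3 passed it newly and 1 reversed. TBX6 reversed to -0.06 without blastoid 3 (edgeR adjusted p = 0.921) and passed the threshold at 1.15 without blastoid 4. MESP1 in pluripotent-like cells passed it at 6.70 with called doublets kept (edgeR adjusted p = 3.23e-07) and at 6.55 without the naming margin (edgeR adjusted p = 8.74e-05). The count of called genes ranged from 4896 to 10157 over all kept cells and from 1077 to 3189 in pluripotent-like cells when each library was left out, where the lone sample of a group is assumed to vary like the other group. DESeq2 called 1784 genes in pluripotent-like cells. Scaling by library size alone moved the median of all genes to 0.18. The share of blastoid cells with at least 2 of the genes was 2.32% at 2000 UMIs, 3.81% at 4000 and 6.65% without thinning. The pluripotent-like share of TBXT-positive cells was 68.7% with called doublets kept and 81.8% without the naming margin, the latter added after the data had been seen, as was a minimum of 2000 UMIs per cell. Of 56 companion genes 4 stayed after thinning, where fewer genes could be ranked, and 27 against cells of the same cluster. No paired analysis was possible because the groups share no replicate numbers.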
